A study of Mus musculus with 81 samples.

Results

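Of 154235 peaks of accessible chromatin in naive mouse embryonic stem (ES) cells, 26566 (17.2%) had no overlapping peak 9 h or 48 h after the cells were moved to formative conditions. These 26566 sites, the sites lost by 9h, were chosen from 3 peak lists of bulk ATAC-seq: a 0h peak was a member when no 9h peak and no 48h peak overlapped it by 1 bp or more. Another 33424 of the 0h peaks were in the 9h list and absent from the 48h list (lost after 9h), 87758 were in both later lists (kept), and 6487 were absent at 9h alone. The 9h and 48h bulk lists held 154758 and 152932 peaks, so all 3 lists were of nearly the same length. The rule used presence and absence in these 3 lists, so that absence is a description here and is not tested. Absence from a list means that no peak was called, not that accessibility was nil, and fewer cells with an open site cannot be told apart from less access in each cell.

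The series holds 81 samples in 27 groups of 3. ATAC-seq cuts open DNA with the Tn5 transposase, and repli-ATAC-seq adds a capture of newly copied DNA: cells took up EdU at 20 µM for 10 min, and the labelled fragments were pulled down either at once (nascent chromatin) or after 2 h with 10 µM thymidine (mature chromatin). The bulk samples are the DNA that the streptavidin capture left unbound, so bulk and captured samples may come from the same cultures. Wild-type 129/Ola ES cells at passages 35 to 45 grew in N2B27 with LIF, 3 µM of the GSK3 inhibitor Chir99021 and 1 µM of the MEK inhibitor PD0325901, and for the last day the MEK inhibitor was replaced by 250 nM of the FGF receptor inhibitor PD173074. From 0h they were plated on fibronectin with FGF2 at 10 ng/mL and Activin A at 20 ng/mL, giving epiblast-like cells (EpiLC) by 48h. The rest of the series is mouse embryonic fibroblasts at passages 2 to 3, heterozygous for Col1a1::tetOP-OKSM, R26-M2rtTA and Oct4GFP on a Black6-129X1/SvJ background, in which doxycycline at 2 µg/mL switches on the 4 reprogramming factors. The OKSM cassette acts only in cells that also carry the transactivator, and all fibroblast groups carried both. Fibroblasts were taken at 6h, 12h and 36h, at 60h in 4 fractions (Q1 to Q4) sorted on a proliferation stain, and at 14h with or without aphidicolin, a blocker of replicative DNA polymerases, given at 5 µg/mL from 4 h after induction for 10 h.

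Naive ES cells are held in their state by LIF signalling through STAT3 and by the inhibition of GSK3 and of the FGF and ERK route, which keep factors such as ESRRB, KLF4 and TFCP2L1 bound at distal enhancers. When the inhibitors are withdrawn and FGF2 and Activin A are given, naive enhancers are decommissioned while OTX2 and OCT4 (also known as POU5F1) move to formative enhancers, whereas the promoters of widely expressed genes, which lie in CpG islands, stay open. GSK3 inhibition stabilises β-catenin, the partner of TCF factors, so its removal also withdraws a Wnt-like signal. As a check of the labels, all 7 ES cell marker genes (Pou5f1, Nanog, Sox2, Esrrb, Zfp42, Tfcp2l1 and Klf4) had a 0h bulk peak within 1 kb of a gene end, but so did 6 of 6 fibroblast markers and 3 of 6 markers of other lineages (Gata6, Sox17 and Cdx2, while Elf5, Zscan4c and Zscan4d had none). Peaks at gene ends therefore did not separate the cell types. At 6h, the fibroblasts had such a peak at 4 of the 7 ES cell markers (Pou5f1, Sox2, Tfcp2l1 and Klf4) and at 6 of 6 fibroblast markers. All of these 4 but Tfcp2l1 are factors of the OKSM cassette, and whether its reads added to these peaks was not tested. Formative markers had such a peak at 6 of 6 genes at 0h, 9h and 48h, and at 5 in the 6h fibroblasts.

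Few members lay at promoters, and those that did had little CG. Of 32817 start windows (the 250 bases before a RefSeq start, assembly GRCm38.p6, with the same coordinates as mm10), 179 were covered over 125 bases or more by a member. The 4 highest-scoring members that covered a whole window of a protein-coding gene are printed to show what such a promoter looks like, followed by the kept promoter with the highest score among the listed genes discussed below. Sequences run 5′ to 3′ on the gene's strand, up to the base before the start, and capitals mark CG dinucleotides.
Krt23: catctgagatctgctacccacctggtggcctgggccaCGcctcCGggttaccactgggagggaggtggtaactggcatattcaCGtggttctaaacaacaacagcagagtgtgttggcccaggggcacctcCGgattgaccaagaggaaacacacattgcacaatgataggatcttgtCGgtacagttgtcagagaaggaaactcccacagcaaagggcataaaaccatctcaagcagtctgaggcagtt
Myh7b: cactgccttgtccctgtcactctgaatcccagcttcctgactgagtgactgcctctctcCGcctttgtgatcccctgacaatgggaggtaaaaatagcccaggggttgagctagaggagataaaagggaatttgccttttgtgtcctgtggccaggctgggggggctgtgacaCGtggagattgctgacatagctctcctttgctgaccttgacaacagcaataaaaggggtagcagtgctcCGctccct
Dcdc2b: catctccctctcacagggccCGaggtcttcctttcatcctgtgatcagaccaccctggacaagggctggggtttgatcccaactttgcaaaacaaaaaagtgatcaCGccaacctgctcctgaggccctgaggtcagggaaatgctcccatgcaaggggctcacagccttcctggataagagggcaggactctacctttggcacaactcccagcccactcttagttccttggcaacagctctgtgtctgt
Guca2a: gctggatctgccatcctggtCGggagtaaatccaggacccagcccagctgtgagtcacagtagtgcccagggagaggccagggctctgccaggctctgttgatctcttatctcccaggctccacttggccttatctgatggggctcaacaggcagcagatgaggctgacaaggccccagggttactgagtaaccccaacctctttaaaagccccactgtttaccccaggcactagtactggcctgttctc
Etv5: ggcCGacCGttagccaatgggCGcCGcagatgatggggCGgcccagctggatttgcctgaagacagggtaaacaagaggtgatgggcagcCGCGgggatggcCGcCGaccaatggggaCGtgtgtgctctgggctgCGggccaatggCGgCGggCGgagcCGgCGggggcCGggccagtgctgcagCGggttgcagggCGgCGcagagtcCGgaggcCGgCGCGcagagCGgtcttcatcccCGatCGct

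Krt23 encodes a type I keratin of epithelia, Myh7b a myosin heavy chain, Dcdc2b a doublecortin-domain protein and Guca2a the gut hormone guanylin. The Krt23 window (chr11:99493121-99493370, minus strand) held 5 CG and lay under a member with a peak score of 1598. The Myh7b window (chr2:155610993-155611242, plus strand) held 3 CG under a member with a score of 1536. The Dcdc2b window (chr4:129614273-129614522, minus strand) held 2 CG, with a score of 1112. The Guca2a window (chr4:119637482-119637731, plus strand) held 1 CG, with a score of 680. The first 3 of these members also had a 0h mature peak, and none of the 4 had a mature peak at 9h or 48h. The kept window of Etv5 (chr16:22439571-22439820, minus strand), an ETS factor downstream of FGF signalling, held 27 CG and had mature peaks at 0h, 9h and 48h. All 4 member windows held fewer CG than the median of 6 over all windows, and the Etv5 window held more than the third quartile of 24 over kept windows.

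Over the 179 member windows the median was 3 CG, with quartiles of 2 and 5, against 4 in the 315 windows lost after 9h, 17 in the 14796 kept windows and 6 in all windows. Windows with 10 or more CG made 3.35% of the members' (6 of 179, 95% Wilson interval 1.55 to 7.12%), 3.81% of those lost after 9h and 76.9% of the kept ones. Kept windows under weaker peaks, those of the lower 5 score deciles, still had 10 or more CG in 41.1% (337 of 820, 37.8 to 44.5%). The members' share lay below that of the weaker kept windows with intervals apart, and overlapped that of the windows lost after 9h (2.192 to 6.54%). Among the genes of the 179 windows, 86 were in the protein-coding table.

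**Figure D1:**
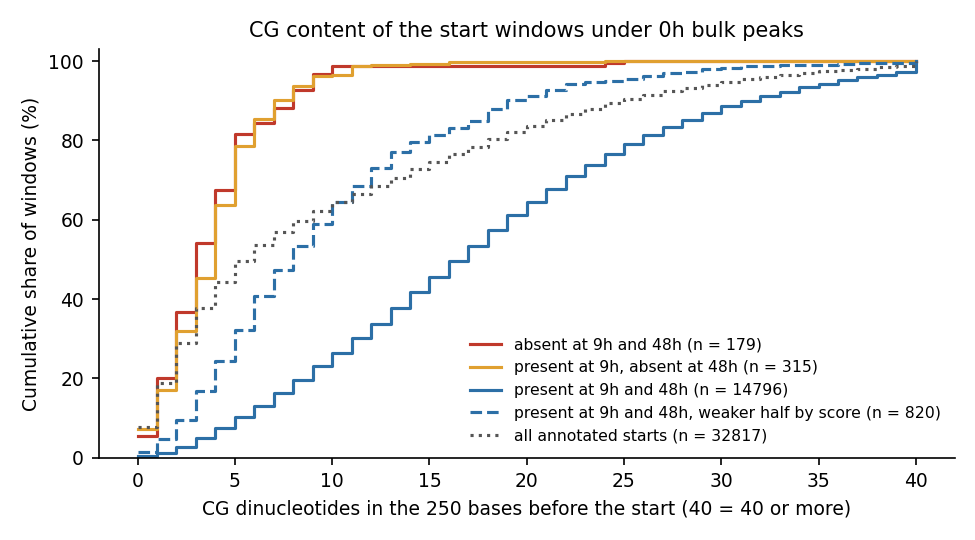
Cumulative share of start windows (vertical axis, %) with up to a given number of CG dinucleotides in the 250 bases before the start (horizontal axis), for windows covered over 125 bases or more by each class of 0h bulk peak, and for all 32817 windows. The curves of the members (red, median 3) and of peaks lost after 9h (median 4) nearly coincide and rise far to the left of the kept windows (median 17) and of the kept windows under weaker peaks (median 8).

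The same windows were searched on both strands for short motifs of factors that act in these cells. A match is a description of the letters, not of binding, and the window sets differ in base composition. The estrogen-related receptor motif TCAAGGTCA, the kind of site bound by the naive factor ESRRB, was in 5 of 179 member windows (2.79%, 1.20 to 6.37%), in 0.387% of all windows and in 0.244% of the weaker kept windows. The 5 windows were those of Myh7b, Inpp4a, Defb42, Gm12061 and Gm10648. In the Myh7b sequence printed above the motif stands on the complementary strand, its first base at position −46 from the start. The SOX motif AACAATGG was in 7 windows (3.91%, against 0.902% of all), the TCF motif CTTTGATC in 6 (3.35%, against 0.801%) and the Kruppel-like factor motif CCACACCC in 14 (7.82%, against 3.19%). AP-1, TGANTCA with N for any base, was in 21 (11.7%, against 6.75%), among them Guca2a, and TEAD, ACATTCCA, was in 5 (2.79%, against 1.19%). For these 6 motifs the interval of the member windows' share lay above the share in all windows, for TEAD only just (1.20% against 1.19%). All 6 intervals overlapped those of the windows lost after 9h, whose shares were 1.27% for the estrogen-related receptor motif, 1.27% for SOX, 0.952% for TCF, 5.71% for the Kruppel-like factor motif, 9.21% for AP-1 and 2.54% for TEAD. In the weaker kept windows the last 5 shares were 0.610%, 0.732%, 4.39%, 7.56% and 0.610%, with intervals that overlapped the members' for all of these but SOX. OTX, GGATTA, was in 17 (9.50%, 6.01 to 14.7%, against 6.25%). The ETS motif CCGGAAGT, which contains a CG, was in 2 windows (1.12%, against 2.88%), the octamer ATGCAAAT of OCT4 in 1 (0.559%, against 1.60%) and the STAT motif TTCCNGGAA in 1. The core of the CTCF motif was in none, which allows a share of up to 2.10%, against 0.680% of all windows. The 11 motifs rest on between 0 and 21 member windows each, with no adjustment for their number, and overlaps between motifs were not removed.

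Most of the members were weak peaks. The peak caller's score, which the authors deposited and which is used here only within a list, had a median of 150 in the members (10th to 90th percentile 62 to 521), against 323 in peaks lost after 9h and 835 in kept peaks. Median widths followed the same order, at 281, 406 and 540 bp. Members made up 45.3% of the weakest score decile of the 0h list and 0.305% of the strongest (47 peaks). The strong tail was still sizeable: 3442 members (13.0%) scored at or above the list's median of 444 and 762 scored 1000 or more. At the edge of the rule, 129 members had a 9h or 48h peak within 100 bp (median score 74), and 99 peaks were left out for an overlap of 25 bp or less (median score 72). Of all members 10.6% had a later peak within 500 bp, and 15.6% had none within 10 kb.

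**Figure D2:**
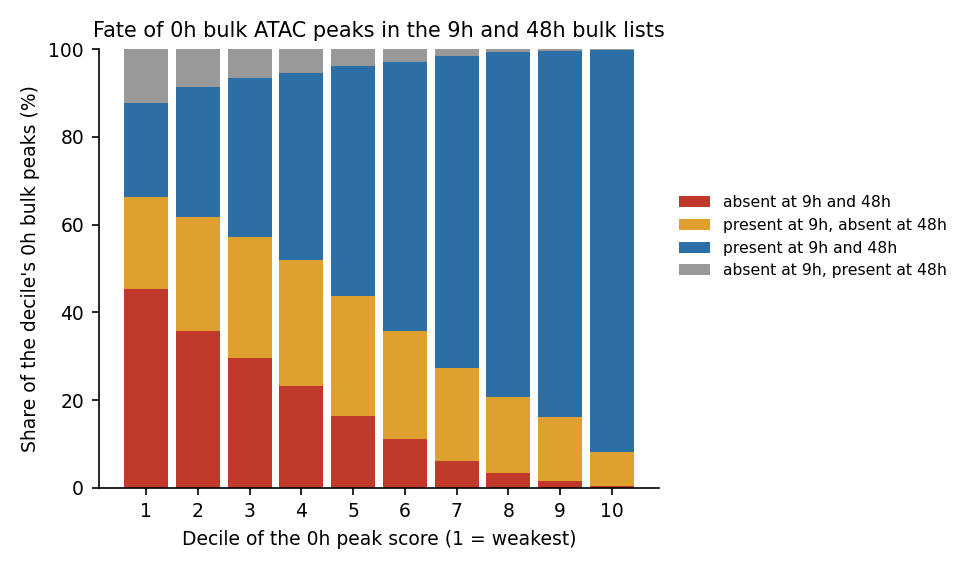
Share of the 0h bulk peaks of each score decile (horizontal axis, 1 = weakest; vertical axis, %) that were absent at 9h and 48h (the members, red), lost after 9h, kept, or absent at 9h alone. The members' share falls from 45.3% in the weakest decile to 0.305% in the strongest.

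Mature chromatin, which the rule did not use, gave a second measure of these sites, but not an independent one. Bulk and captured samples may come from the same cultures. Members were chosen to lack a 9h bulk peak, and peaks lost after 9h and kept peaks to have one. A lower 9h mature share in the members is thus partly built into the classes. At 0h, 2878 members (10.8%, 95% interval 10.5 to 11.2%) overlapped a mature peak, against 42.4% of all 0h bulk peaks. At 9h, 1183 members (4.45%, 4.21 to 4.71%) did, against 54.2% of all, and at 48h 340 members (1.28%, 1.15 to 1.42%), against 39.4%. The members' share thus fell from 0h to 9h while that of all 0h peaks rose, although the 9h mature list was longer (94946 peaks) than the 0h one (66518). With the 9h list cut by score to 66518 peaks, a setting chosen after the data were seen, 279 members (1.05%) overlapped a 9h mature peak, against 28.1% of peaks lost after 9h and 61.1% of kept peaks. Intervals here and below cover counting error only. With 1 list a group there is no spread between replicates, PCR reads are not independent molecules, and the depth of the libraries behind these lists is unknown.

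The difference was also present at matched scores, and part of it was already there at 0h. Matching on the 0h score does not undo the choice of classes by their 9h bulk peaks. Peaks called again at 9h are compared with peaks that were not, so the 0h mature contrast may be partly built in too. When peaks of the other classes were weighted to the members' score deciles, 17.3% of peaks lost after 9h and 17.3% of kept peaks had a 0h mature peak, and 39.8% and 48.0% had one at 9h. In each of the 10 deciles the members' 9h share was below that of both other classes with intervals apart. In the members it stayed between 2.13% (decile 10) and 5.07% (decile 4), whereas in peaks lost after 9h it went from 30.7% in the weakest decile to 82.6% in the strongest, and in kept peaks from 33.5% to 98.8%. At 0h the members' share still followed the score, from 2.39% in the weakest decile to 93.6% (44 of 47) in the strongest, where 99.4% of peaks lost after 9h had a mature peak. It was lower than in both other classes in all 10 deciles with intervals apart, for example 27.1% in decile 6 against 41.1% of peaks lost after 9h and 41.5% of kept peaks. Among the 3442 stronger members, 41.2% had a mature peak at 0h, 3.92% at 9h and 1.54% at 48h. For peaks lost after 9h with the same minimum score the 3 shares were 67.4%, 61.2% and 4.32%.

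**Figure D3:**
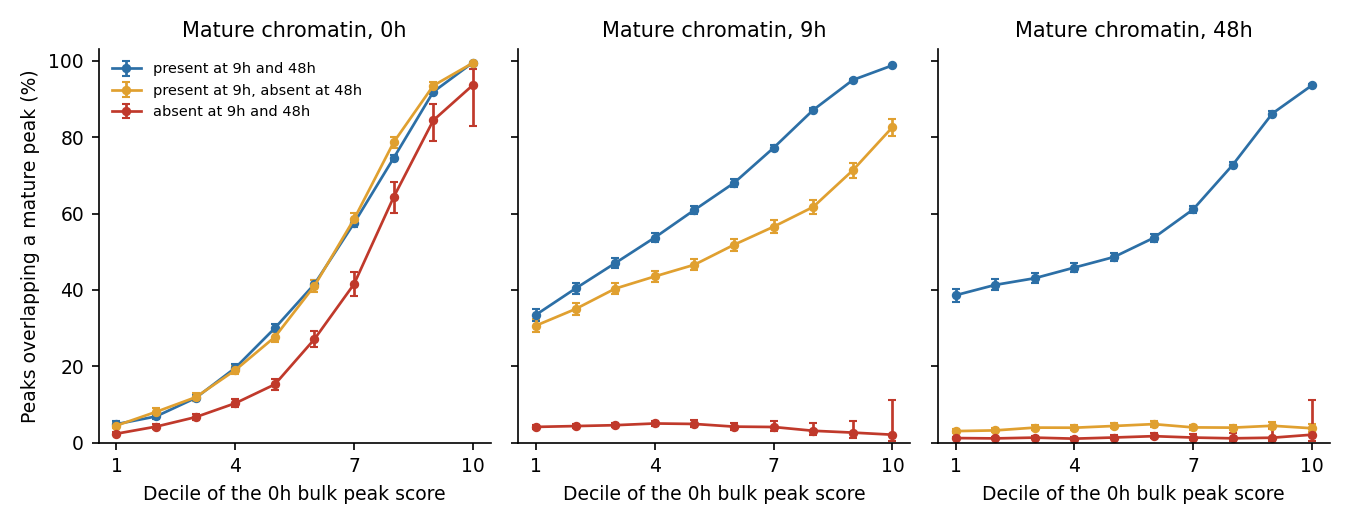
Share of 0h bulk peaks that overlap a mature repli-ATAC peak (vertical axis, %) at 0h, 9h and 48h, by decile of the 0h bulk score (horizontal axis), for members (red), peaks lost after 9h (orange) and kept peaks (blue); bars are 95% Wilson intervals. At 0h the members rise with the score, from 2.39% to 93.6%, and lie below both other classes in each decile. At 9h they stay between 2.13% and 5.07%, where peaks lost after 9h reach 82.6%.

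Sites were also followed from their own 0h mature peak. Of the 2878 members with one, 380 (13.2%, 12.0 to 14.5%) had a 9h mature peak and 104 (3.61%) a 48h one. The matching 9h shares were 71.4% for peaks lost after 9h and 93.6% for kept peaks, or 67.1% and 87.8% when weighted to the members' mature scores. By pattern, 2441 members had a mature peak at 0h alone (median bulk score 482), 333 at 0h and 9h (median 249), and 751 at 9h alone (median 128). No mature peak at any time was listed for 22701 members (85.5%). The 9h mature peaks were more frequent near the edge of the rule: 8.71% of members with a later bulk peak within 500 bp had one, against 3.20% of those more than 10 kb from any.

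Nascent peaks were rare at these sites. A 0h nascent peak overlapped 87 members (0.327%, 0.266 to 0.404%), against 12.2% of all 0h bulk peaks; weighted to the members' scores, 0.631% of peaks lost after 9h and 1.83% of kept peaks had one. At 9h 34 members (0.128%, against 11.6% of all) and at 48h 77 (0.290%, against 16.1%) had a nascent peak. Altogether 17833 members (67.1%) were in no other list of the series, and 32.9% were in 1 or more, against 88.4% of all 0h bulk peaks. The rule sets this contrast in part. Every 0h peak that is not a member is in the 9h or 48h bulk list, so only members could be in no other list.

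The strongest members show the pattern site by site. The top member, at chr19:55792477-55793194 inside the gene model of Tcf7l2, a TCF factor through which β-catenin acts, had a bulk score of 6359 at 0h, a mature score of 513 and a nascent score of 84. It had no captured peak at 9h or 48h. Its nearest 9h bulk peak was 1200 bp away. It was also open in the fibroblasts, with bulk scores of 214 at 6h, 414 at 12h and 182 at 36h. Next came a site at chr13:9039565-9040070, 43449 bp from Gtpbp4, a nucleolar GTPase gene, with a bulk score of 5183 and a mature score of 473. A site at chr9:23044879-23046164, 156596 bp from Bbs9, whose product is part of the ciliary BBSome, scored 4977 in bulk, 781 in mature and 193 in nascent chromatin. The member at chr16:49992698-49993483, 80195 bp from Cd47, which encodes a surface signal that restrains phagocytosis, scored 4380, 819 and 159. Inside St8sia2, a polysialyltransferase gene, a member at chr7:73989891-73991162 scored 4007, 379 and 84. The other 5 of the top 10 had bulk scores of 3939 to 4886. They lay inside Maats1, Sgf29 and Prrc2b, 536209 bp from Nrsn1 and 164283 bp from Brinp3. Of these 10 members 9 had a 0h mature peak, and none had a mature or nascent peak at 9h or 48h. The exception was the member in Prrc2b, a site 405 bp wide that was in no other list and lay 494 bp from a 9h bulk peak. In the fibroblast lists of the time course and the sorted fractions, the members at Tcf7l2 and Brinp3 alone of the 10 had a peak.

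Members were mostly distal. Within 1 kb of either end of a protein-coding gene model lay 1035 of them (3.90%, 3.67 to 4.14%), against 12.9% of all 0h bulk peaks. Weighted to the members' scores, the shares were 4.99% for peaks lost after 9h and 9.81% for kept peaks. The members' share was lower in all 10 deciles against both classes, with intervals apart in 10 deciles against kept peaks and in 1 against peaks lost after 9h. More than 50 kb from any gene end lay 33.2% of members, against 28.9% of peaks lost after 9h and 25.8% of all. Inside a gene model lay 53.3%, against 56.5% of all.

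Members were spread over the genome with a modest tendency to neighbour each other. The next 0h peak along the chromosome was a member for 20.7% of members (20.2 to 21.2%) and for 16.5% of other peaks (16.3 to 16.7%). For peaks lost after 9h the share was 18.1% (17.7 to 18.5%) and for kept peaks 15.7% (15.5 to 16.0%). These shares are not standardised for score. Chromosomes ranged from 15.6% (chromosome 15) to 18.8% (chromosome 13) members, apart from Y with 3 of 44. Over 1927 bins of 1 Mb with at least 20 peaks the median share was 17.2%, and 8.05 to 32.3% spanned the 5th to 95th percentiles. The highest bin, on chromosome 7 from 95 to 96 Mb, had 15 members among 28 peaks. A bin on chromosome 15 from 61 to 62 Mb, which also holds the proto-oncogene Myc, had 11 among 21, but none of the 6 peaks at the Myc locus itself was a member. Both bins were chosen after their values were seen. The longest unbroken runs held 7 members. One lay in Ptbp3, which encodes an RNA-binding splicing regulator, over chr4:59489426-59523839, with no score above 244. Others of that length lay in Zfp385b, in Adamtsl1 and between AI593442 and Ddx10. Runs of 6 with stronger peaks lay in Ulk4 (highest score 2373) and Ephb1 (1239), and from Mex3b to A530021J07Rik (3851).

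By locus, taken as the gene model and 10 kb on each side, the most members were at long genes. Tenm4 held 43 members among 120 peaks, Tenm3 29 among 117, Tmem132d 24 among 66, Frmd4b 22 among 49, Zfp385b 22 among 42 and Smyd3 21 among 77. Baz2b, Foxn3, Slc39a11 and Ctnnd2 held 20 each. These 10 gene models are 310.6 to 1297.2 kb long, and the part of length in the rank was not tested. Tenm4 and Tenm3 encode teneurins, adhesion proteins of the nervous system, and Ctnnd2 encodes a neural catenin. Over all protein-coding loci, members made up 15.1% of 0h peaks (20468 of 135241). The shares of the gene lists below are read against that and are not standardised for score.

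At the naive pluripotency loci the share of members was close to that of all loci: 32 of their 194 peaks were members (16.5%, 11.9 to 22.4%), at 13 of 18 genes. Peaks lost after 9h took 29.9% of the same 194, against 19.5% over all loci. Esrrb, the orphan nuclear receptor of the naive network, had 10 members among 45 peaks, with scores from 46 to 596. Its highest, at chr12:86385901-86386476 inside the gene model, had a mature peak at 0h and none later. Nr5a2, a nuclear receptor that can replace OCT4 in reprogramming, had 6 among 26. One of these, at chr1:136951245-136951721 and 1909 bp from the start, had a score of 2253, the highest at any naive locus, and a 0h mature peak alone. Tfcp2l1 had 3 of 17, Prdm14 2 of 16, Fgf4 2 of 8 and Tdh, a threonine dehydrogenase gene of naive cells, 2 of 9. Nanog, Pou5f1, Klf2, Klf4, Klf5, Gbx2 and Tbx3 had 1 each, and Sox2, Dppa3, Zfp42, Tcl1 and Nr0b1 had none. At Fgf4 the stronger member, chr7:144858764-144858979 with a score of 699, lay 2407 bp from the start. None of the 32 had a mature peak at 9h or 48h, against 5 at 0h. Over all members the shares were 10.8% at 0h, 4.45% at 9h and 1.28% at 48h. Counts at so few sites, here and in the lists below, are description only.

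The Wnt and GSK3 list had 32 members among 178 peaks (18.0%, 13.0 to 24.3%), whereas its share lost after 9h was 14.0%, below the 19.5% over all loci. The interval of the members' share includes the 15.1% of all loci. Nkd1, which antagonises Dishevelled, had 4 among 8 peaks and Rnf43 and Znrf3, ubiquitin ligases that remove Wnt receptors, had 6 among 18 and 6 among 22. Tcf7 had 4 among 11 and Tcf7l1, the repressor that GSK3 inhibition relieves, 5 among 45. Axin2, a scaffold of the β-catenin destruction complex, had 3 among 15, and Lef1 and the homeobox gene Cdx1 had 2 each. The strongest lay outside the Tcf7 gene model at chr11:52240656-52241231 (score 1995), with a mature peak at 0h and none later. At Axin2 a member at chr11:108911702-108912540 scored 718 and had the same pattern. The Tcf7l1 member at chr6:72768006-72768433 (score 1008) went the other way, with mature peaks at both 0h and 9h. Of the 32 members 5 had a mature peak at 0h, 2 at 9h and 2 at 48h. Sp5, T, Cdx2, Lgr5, Dkk1 and Notum had no member.

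In the LIF and STAT3 list 14 of 116 peaks were members (12.1%, 7.33 to 19.2%). Il6st, which encodes the receptor subunit gp130, had 4 among 11 and Stat3, the transcription factor of the pathway, 2 among 9. The Stat3 member at chr11:100888666-100889411 scored 1069 and had a mature peak at 0h and none later. Tfcp2l1, also a naive gene, had 3, and Lifr, Jak1, Socs3, Pim3 and Klf4 had 1 each. The ERK feedback list had 13 of 100 (13.0%), of which Spred2, an inhibitor of RAF activation, had 7 among 36. Etv1 had 2, and Spred1, Spry2, Egr1 and Dusp5 had 1 each. In the formative and EpiLC list 16 of 173 were members (9.25%, 5.77 to 14.5%), below the 15.1% of all loci. Etv5 had 5 among 27, Grhl2 3 among 20, Otx2 2 among 10 and Cdh2 2 among 14. Lef1, also in the Wnt and GSK3 list, had 2, and Foxd3 and Pou3f1 had 1 each. Fgf5 and Dnmt3b were among the genes with none. Of the 16 members 3 had a mature peak at 0h, 2 at 9h and 0 at 48h. The Foxd3 member, with a score of 630, had mature peaks at both 0h and 9h. The shares were 12.9% for general pluripotency (17 of 132), 9.86% for germ layer and primitive streak genes (7 of 71), 9.57% for extraembryonic genes (9 of 94) and 10.3% for ubiquitous promoters (12 of 117). The two-cell-stage list had 2 among 8 peaks.

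Fibroblast genes had the largest share of the 10 lists with over 10 peaks, 43 members among 141 peaks (30.5%, 23.5 to 38.5%). The members lay at 12 of the 19 genes with a 0h peak. The interval takes peaks as independent, though many shared a locus, and the part of gene length in the share was not tested. A Pdgfrb member, chr18:61042831-61043638, is also counted for Cdx1 in the Wnt and GSK3 list. Members came to 10 of 24 peaks at Runx1, a regulator of mesenchymal and blood lineages, and 10 of 25 at Fn1, which encodes the matrix protein fibronectin. Fbn1, for the microfibril protein fibrillin, had 5 of 11 and Pdgfrb, the PDGF receptor of mesenchymal cells, 3 of 11. The members at Fn1 were weak, with scores from 35 to 241, and those at Runx1 ran from 70 to 472. Of the Runx1 members 6 lay side by side over 18.7 kb (chr16:92621210-92639913). Of the 43 members, 20 (46.5%) overlapped a fibroblast bulk peak at 6h, 12h or 36h, against 18.6% of all members and 43.0% of all 0h bulk peaks. At the naive loci 3 of 32 did. Among the 43, 6 had a mature peak at 0h, 1 at 9h and none at 48h.

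In reprogramming fibroblasts, members were open less often than other ES cell sites. A bulk peak overlapped 12.7% of members at 6h (12.3 to 13.1%; 33.4% of all 0h bulk peaks), 16.0% at 12h (40.3% of all) and 12.9% at 36h (36.2% of all). Weighted to the members' scores, 18.1%, 23.7% and 20.0% of peaks lost after 9h were open at these times. At 36h the members' share was lower in all 10 deciles against both other classes with intervals apart, and at 6h in 10 deciles with intervals apart in 9 against peaks lost after 9h. The lists differ in length, at 177275, 199056 and 137173 peaks, so the order of the 3 times is not read. In the sorted fractions at 60h the members' shares were 5.92%, 5.21%, 6.15% and 4.08% from Q1 to Q4, lists of 57762 to 73518 peaks. Over all 0h bulk peaks they were 25.56%, 23.98%, 25.6% and 19.15%, also lowest in Q4, the shortest list.

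Members that were open in fibroblasts at 6h left the lists more often by 36h. Of 3259 members with a 6h peak in both bulk arms (nascent and mature), 686 (21.1%, 19.7 to 22.5%) were absent from both arms at 36h, against 13.5% of peaks lost after 9h and 4.32% of kept peaks. Of 22463 members absent at 6h, 559 (2.49%, 2.29 to 2.70%) were present in both arms at 36h, against 5.57% and 6.92%. These 2 shares are not standardised for score in the fibroblasts.

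**Figure D4:**
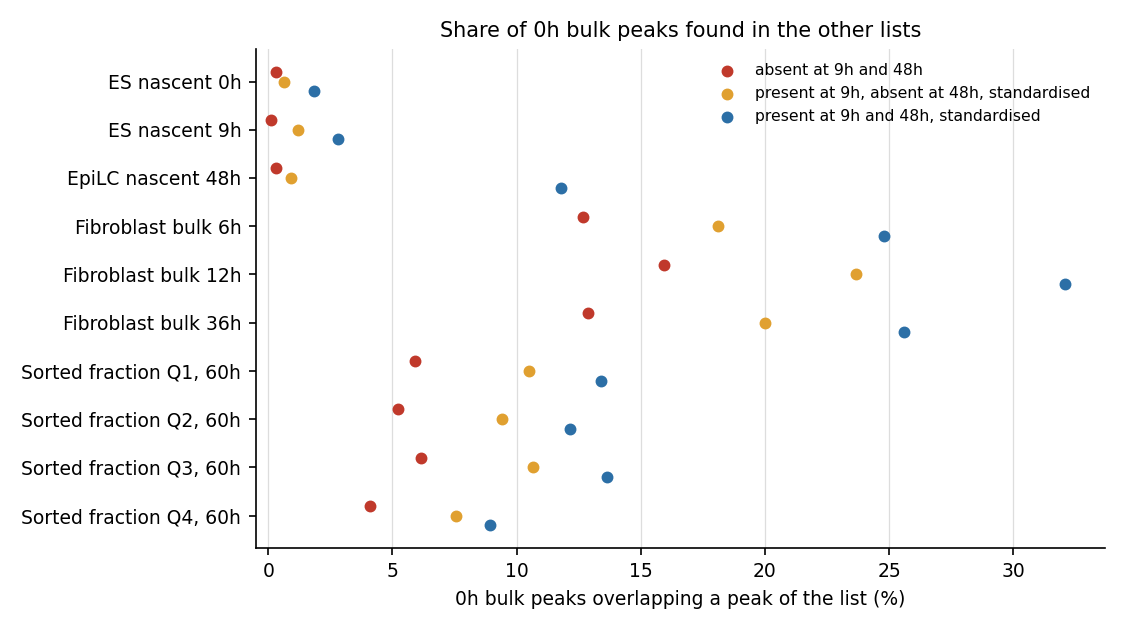
Share of 0h bulk peaks overlapping a peak of each other list (horizontal axis, %; lists on the vertical axis) for members (red) and, weighted to the members' score deciles, for peaks lost after 9h (orange) and kept peaks (blue). The members lie to the left of both other classes in each of the 10 lists shown, at 12.7%, 16.0% and 12.9% in the fibroblast bulk lists and under 1% in the nascent lists.

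With replication blocked, more of the members were in the peak lists, as were more of all 0h peaks. Peak lists of single libraries held 13.1%, 14.9% and 14.0% of members with aphidicolin and 10.8%, 11.2% and 10.1% without, and the groups did not overlap. The means were 14.0 ± 0.881% and 10.7 ± 0.534% (SD, n = 3 each), a difference of 3.28 percentage points (exact permutation test, two-sided, p = 0.1, the smallest that 3 against 3 can give). Over all 0h bulk peaks the difference was 4.34 points, from a higher base (37.3% against 32.9%). Taken as a ratio to the share of all 0h bulk peaks, the members' share was 0.320 to 0.335 untreated and 0.367 to 0.386 with aphidicolin. The aphidicolin lists were longer, at 148292 to 163947 peaks against 116939 to 129546. With each list cut by score to 116939 peaks, the members' difference was 0.174 points (exact permutation p = 0.5) and the groups overlapped. Over all 0h bulk peaks it was then −0.179 points (exact permutation p = 0.4), and the ratios were 0.304 to 0.320 untreated and 0.319 to 0.323 with aphidicolin.

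**Figure D5:**
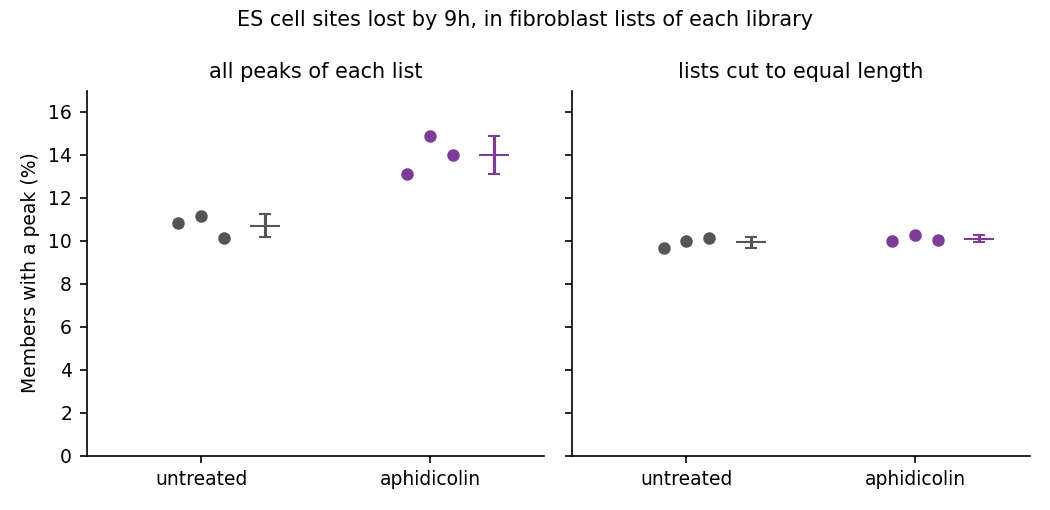
Share of members with a peak in each library's list (vertical axis, %) in untreated and aphidicolin-treated fibroblasts at 14h, with all peaks (left) and with lists cut to equal length (right); points are libraries and bars are mean ± SD (n = 3). The groups are apart with all peaks (10.1 to 11.2% against 13.1 to 14.9%) and overlap at equal length.

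By read counts, the calls at the members were close to those over all regions tested and differed from those at the other ES cell sites. The count table held 3225 regions at 3190 members (12.0% of them), and 790 of the 3225 were in it through the aphidicolin lists alone. By edgeR's quasi-likelihood test with Benjamini-Hochberg adjustment at 0.05, 583 of the 3225 (18.1%) were higher with aphidicolin and 466 (14.4%) lower, against 18.0% and 17.9% of the 138996 regions tested. The median log2 fold change was 0.04, against 0.02 over all. At regions lost after 9h 14.3% were higher and 20.2% lower (median −0.04), and at kept regions 5.56% and 33.3% (median −0.17). Weighted to the strength of the members' regions, these shares were 14.8% and 18.7%, and 7.65% and 20.9%. The differences between the classes were not tested. Regions in the table through the aphidicolin lists alone, which had to be higher there, made up 24.5% at members and 26.1% over all. At regions lost after 9h they made up 20.1%, and at kept regions 13.2%. The shares of higher calls follow the same order, so differences between the classes cannot be told apart from this admission. Of the called member regions 55.6% were higher, against 50.2% of those over all regions. With library totals in place of TMM it was 83.0% (1003 higher, 206 lower), against 79.15% over all. The median of all regions was then 0.18 and that of the members 0.20. Among the 2388 member regions with a peak in all 6 lists, 327 were higher and 439 lower. That split was not made for all regions. The size of the balance thus depended on the scaling, at members and over all regions. Its direction at members depended on which regions were admitted and on 1 library. Without untreated library a, 496 member regions were higher and 531 lower, 48.3% of calls higher against 48.47% over all. Leaving out aphidicolin library b or c lowered the 1049 calls to 637 and 667, and the 49935 over all regions to 30467 and 32011.

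The largest changes among member regions whose groups did not overlap were at sites outside the gene lists. The strongest fall was inside Fbxl18, an F-box gene, at chr5:142871824-142872083. Its levels were 2.4, 2.2 and 1.56 log2 CPM untreated and 1.03, 1.00 and 0.69 with aphidicolin, a log2 fold change of −1.20 ± 0.18 (SE; edgeR adjusted p = 0.000176). Inside Igsf3, which encodes a membrane protein of the immunoglobulin superfamily, at chr3:101440146-101440343, the level was 1.39, 1.46 and 1.62 untreated and 0.58, 0.31 and 0.45 treated, a change of −1.06 ± 0.15 (edgeR adjusted p = 0.000152). The region inside Thada fell by 1.03. Regions near Tfam, which encodes a mitochondrial transcription factor, and in Mgst3 had log2 changes of −1.20 and −1.07, given with no test because they entered the table through the untreated lists alone. The highest positive change was inside Tbca, a tubulin cofactor gene, at chr13:94813843-94813958. It went from −1.64, −0.87 and −1.69 to 0.18, 0.26 and 0.33 log2 CPM, a change of 1.68 ± 0.25 (SE). The region nearest to Phactr1, 651 bp away at chr13:42679198-42679723, went from 0.59, 0.28 and 0.50 to 1.96, 1.57 and 1.76, a change of 1.32 ± 0.16. Regions nearest to Zfp386, Zfp948 and Smc2 (3941, 27234 and 138590 bp away) had changes of 1.68, 1.41 and 1.35. All 5 of these regions entered the table through the aphidicolin lists alone, which favours higher counts there, so their changes are given with no test.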

How the data were processed

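Peaks came from 25 lists that each stand for a group and 6 that each stand for a library; a table of read counts covered the same 6 libraries. Per the submitters' processing notes, the tools were MACS2 2.2.0, Bowtie2 2.2.5, bedtools 2.26.0, cutadapt 2.2.0, SAMtools 1.4.1 and bcl2fastq 2.19.1, and the build mm10. Transposase shifting, peak thresholds and pooling of replicates in the ES cell lists are not given in the sources used here. Per peak the authors deposited a score, used only to rank or filter within a list, and raw read counts per region for the 6 aphidicolin-experiment libraries (41183769 to 78677381 counts each), whose column numbers are tied to no sample, so each group's libraries are lettered a to c. At each fibroblast time the bulk list of the nascent arm was assigned by elimination. Labels do not say whether replicates were separate cultures, so the p-values may rest on technical spread alone.

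Overlaps of 1 bp or more were found with bedtools 2.31.1. Gene models are the 21887 protein-coding genes of the RefSeq table for GRCm38.p6, and starts come from its promoter table, which covers fewer chromosomes. Shares carry 95% Wilson intervals. Standardised shares weight each decile of the 0h score as the members fill it. Counts were tested with edgeR 4.0.16 (glmQLFit, TMM, filterByExpr) in R 4.3.3, with DESeq2 1.42.0 as an alternative. The members and the gene lists were chosen with earlier results of these data known, and nothing is supported by that choice. Named sites are the 10 highest-scoring members, the 10 loci with most members, listed genes with a member, and the 5 largest aphidicolin changes each way among called regions whose groups do not overlap. Fibroblast, general pluripotency and the remaining lists are given by their counts, with examples chosen after their values were seen. Other settings tried are given in the closing section.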

Additional observations from a re-analysis of the deposited data

How the results depend on the processing

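The 9h mature share of 4.45% was 3.92% among members at or above the list's median score, 3.95% among members with no later bulk peak within 500 bp, 3.36% when the later peak had to cover 50% of the member, and 1.05% with the 9h list cut to the 0h length. At or above the median score, the 0h mature share was 41.2% (10.8% for all members), the 0h nascent share 1.6% and the share near a gene end 3.6%. That gene-end share was 3.34% without members close to a later peak, 9.06% within 2.5 kb and 2.83% at annotated starts. With the bulk list of the mature arm, 15% of members had a 6h fibroblast peak (12.7% with that of the nascent arm). The aphidicolin difference in list shares was 2.85 to 3.73 points with 1 library left out, each time in the same direction (exact permutation p = 0.2, the smallest those designs allow). The 1049 calls at member regions became 637 to 1193 with 1 library left out, 867 with DESeq2 and 731 with offsets that follow region strength (366 higher, 365 lower). The 49935 calls over all regions became 30467 to 57937, 43208 and 30550 in the same settings. When the region had to cover 50% of the member, 739 of 2141 member regions were called. Without the low-count filter the calls at member regions were 1049 again (49952 over all). A replicate block on the column number gave 1292 calls at member regions (60460 over all). Same-numbered libraries of the 2 groups had correlated deviations of 0.263, 0.0124 and 0.154, and not every library correlated best with its own number, so pairing was not established. The ES cell lists have no replicates, and whether depth moved weak peaks in or out of a list was not tested. Strength-following offsets, the equal-length 9h list, annotated starts and the 6-list regions were chosen after the data were seen.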
